A study of Mus musculus with 6 samples.

Results

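The genes described here encode 47 enzymes of amino acid catabolism and of the methionine cycle. They were chosen by name, from a list of enzymes that break down aromatic, sulfur, glycine-related, proline, lysine and branched-chain amino acids, and each of the 47 symbols was found among the 24411 gene symbols of the count table. Of the 47, 44 had enough reads to be tested, and Acmsd, Csad and Amt did not. Whole livers were taken at postnatal day 19 (P19) from 3 mice of each genotype, p62+/+ and p62S351E/+, and RNA depleted of ribosomal RNA was sequenced from each. The p62S351E/+ mice were heterozygous for a knock-in allele of Sqstm1, which encodes p62, with glutamate in place of Ser351. Per the study's methods, the allele was made by prime editing in mouse embryonic stem cells and passed through a single male chimera with low chimerism, whose sperm was used for in vitro fertilization, so the mutation was represented by a single knock-in line. The labels gave neither the sex nor the litter of any mouse, and mice sharing a replicate number were not stated to be related. The p62S351E substitution mimics phosphorylation of a p62 residue that strengthens its binding to KEAP1, the adaptor that holds the transcription factor NRF2 in check, and the comparison asked what the allele did to liver gene expression.

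The liver is the main site at which most amino acids are broken down, and hepatocytes carry most of the enzymes involved. The methionine cycle joins methionine to ATP to make S-adenosylmethionine, the methyl donor of the cell, which after methyl transfer becomes S-adenosylhomocysteine and then homocysteine. Homocysteine is either methylated back to methionine, in the liver partly with betaine, or passed through transsulfuration to cysteine, the building block that limits glutathione synthesis. Glycine N-methyltransferase disposes of surplus S-adenosylmethionine by making sarcosine from glycine, and mitochondrial sarcosine dehydrogenase returns sarcosine to glycine.

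In these libraries 2 of the 44 genes rose in p62S351E/+ livers and none fell, by edgeR's quasi-likelihood test with Benjamini-Hochberg adjustment over 5945 genes (adjusted p under 0.05 and absolute log2 fold change over 1). The genes were Tdo2, which opens tryptophan breakdown, and Sardh, which oxidizes sarcosine. Of all genes tested, 0.841% were called higher and 0.0841% lower. At an unadjusted p under 0.05, 20 of the 44 were higher and 0 lower, where 9.02% and 5.55% of all genes were higher and lower. DESeq2 gave an adjusted p for 37 of the 44 and for 1814 genes in all, and called 4 of the 37 higher and none lower, against 3.14% and 0.606% of the 1814. Limma-voom called 5 of the 44 higher and none lower, against 2.05% and 0.219% of the 5945 genes. The fitted log2 fold change was above 0 for 42 of 44, against 48.0% of all genes, and the exceptions were Agxt and Prodh2. The median was 0.71 over the 44, with a range from -0.26 to 1.76, beside -0.03 over all genes tested. These directions are relative to the TMM scaling: divided by library size only, all genes had a median of -0.68 and the 44 genes one of -0.03, with 21 of 44 above 0. In that scaling none of the 44 was called higher or lower by edgeR (0.202% and 0.0336% of all genes), and 1 was higher and 1 lower at an unadjusted p under 0.05. The share of all genes at that unadjusted cutoff was not computed with library size only. In 21 of the 44 every p62S351E/+ mouse lay above every p62+/+ mouse, against 12.0% of all genes, and in 0 every p62S351E/+ mouse lay below, against 14.7%. In bulk RNA, fewer cells of a type and less RNA per cell cannot be told apart.

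The libraries differed in ways that moved with these genes. Total expected counts lay between 8696712 and 10341622 per mouse, but only 134911 to 315436 of them fell outside the 3 dominating genes Rn45s, Lars2 and Mir6236. The 10 brain markers summed to between 1948 and 2243 counts in the p62+/+ mice and to 2117 in p62S351E/+ mouse 3. In p62S351E/+ mice 1 and 2 they summed to 3 and 5 counts, and 5 of the 10 were at 0 in both. The list holds neuronal and glial genes such as Snap25, Gfap and Mbp. All 10 hepatocyte markers were detected in every library. Their sum was 14784, 13421 and 14385 normalized counts in the p62+/+ mice and 19382, 31744 and 14049 in p62S351E/+ mice 1, 2 and 3. Hepatocyte transcripts were thus found in all 6 libraries, beside brain transcripts in all but those of p62S351E/+ mice 1 and 2. The hepatocyte sum was highest in the libraries with next to no brain transcripts. Among the mutants only mouse 3 lay within the wild-type range of both sums, with brain markers in counts. In normalized counts its brain sum was 1640, a little below the wild-type range of 1682 to 1741. Markers of other liver cells moved less evenly. Stellate and fibroblast markers summed to 103 to 194 normalized counts in wild-type and 47.9 to 68.2 in mutant mice, erythroid markers to 137 to 196 and 58.5 to 133, and Kupffer cell markers to 41.1 to 57.9 and 65.1 to 80.0. The sums of sinusoidal endothelial markers (104 to 179.6 and 123 to 187) and cholangiocyte markers (22.5 to 82.1 and 22.5 to 70.5) overlapped, and no gene of any marker list was called. Xist, the RNA that silences the inactive X chromosome, was at 1 and 0 counts in p62S351E/+ mice 1 and 2 and between 70.8 and 1537 in the others. The main results were therefore also computed from mouse 3 alone among the mutants, with brain marker level as a covariate, and after scaling to the hepatocyte markers.

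Across the 44 genes the median log2 ratio to the p62+/+ mean was 0.01, 0.03 and 0.01 in the p62+/+ mice themselves and 0.67, 0.98 and 0.23 in p62S351E/+ mice 1, 2 and 3. Over all genes tested the same medians lay between -0.12 and 0.00. All 3 mutants thus had medians above the wild-type mice, and mouse 3 was nearest to them. Mouse 2 was the highest mutant for 30 of the 44 genes and mouse 3 the lowest for 37, where mouse 2 was highest for 31.7% and mouse 3 lowest for 31.6% of all genes. With mouse 3 as the only mutant, the median log2 fold change of the 44 genes was 0.25, beside -0.02 over all genes, and 32 of 44 were above 0. Mouse 3 lay above every p62+/+ mouse for 24 of the 44 genes and below every one for 5, where 27.7% and 29.6% of all genes did so.

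**Figure D1:**
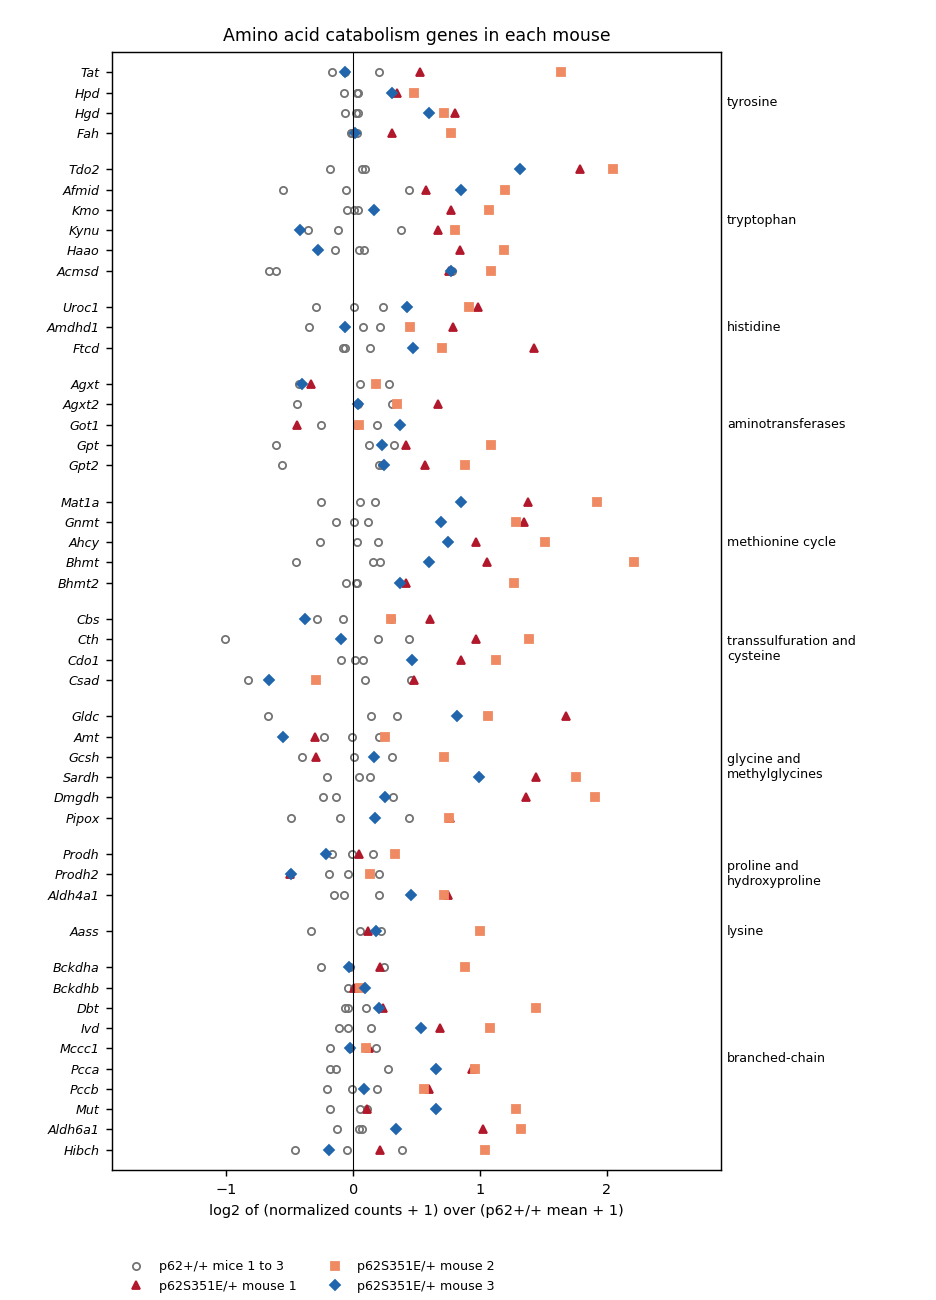
Log2 ratio of normalized counts to the p62+/+ mean (x axis, with a pseudocount of 1) for each of the 47 genes (rows, by pathway), with 1 point per mouse. Over the 44 tested genes p62S351E/+ mice 1 and 2 (triangles and squares) had medians of 0.67 and 0.98, and mouse 3 (diamonds) lay closer to 0, with a median of 0.23.

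Tdo2 had the largest fold change of the list. It encodes tryptophan dioxygenase, the hepatic enzyme that opens the indole ring and commits tryptophan to the kynurenine pathway. Tdo2 (chromosome 3, 81958412 to 81975728, mm10) had 120.4, 101 and 123 normalized counts in p62+/+ mice 1, 2 and 3 and 399.9, 478 and 287 in p62S351E/+ mice 1, 2 and 3. The groups did not overlap, and mouse 3 was the lowest mutant. These values rest on 150, 130 and 142 expected counts in the wild-type libraries and 210, 379 and 371 in the mutants. The mean was 115 ± 11.9 (SD, n = 3) in p62+/+ and 388 ± 95.6 (SD, n = 3) in p62S351E/+ mice, a log2 fold change of 1.76 ± 0.25 (SE) with an adjusted p of 0.0181 in edgeR. With mouse 3 as the only mutant the log2 fold change was 1.34 (edgeR adjusted p = 5.12e-05). That fit assumes that the lone mutant varies like the wild-type mice, whose Tdo2 values varied less than those of the mutants. With the brain marker covariate the log2 fold change was 1.32 (edgeR adjusted p = 0.0372). Scaled to the hepatocyte markers it was 1.21 and was not called (edgeR adjusted p = 0.0833), and with library size only it was 1.02 and was not called (edgeR adjusted p = 0.417). The call was also lost without p62+/+ mouse 1, 2 or 3 (edgeR adjusted p between 0.0980 and 0.147) and without p62S351E/+ mouse 1 (edgeR adjusted p = 0.0772).

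Sardh encodes sarcosine dehydrogenase, a mitochondrial flavoprotein that demethylates sarcosine to glycine. Sardh (chromosome 2, 27188393 to 27248332, mm10) had 62.6, 74.5 and 79.5 normalized counts in the p62+/+ mice and 198, 247 and 145 in p62S351E/+ mice 1, 2 and 3. Again the groups did not overlap and mouse 3 was the lowest mutant. The mean was 72.2 ± 8.67 (SD, n = 3) in wild-type and 197 ± 51.1 (SD, n = 3) in mutant mice, a log2 fold change of 1.44 ± 0.25 (SE) with an adjusted p of 0.0442 in edgeR. From mouse 3 alone the log2 fold change was 1.02 (edgeR adjusted p = 0.00947). The call was lost with the brain marker covariate (edgeR adjusted p = 0.207), the Xist covariate (edgeR adjusted p = 0.146), DESeq2 size factors (edgeR adjusted p = 0.0522) or library size only (edgeR adjusted p = 0.421), after scaling to hepatocyte markers (0.88, edgeR adjusted p = 0.456), and when any mouse other than p62S351E/+ mouse 3 was left out (edgeR adjusted p between 0.0798 and 0.246).

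The promoter windows of both called genes are shown because NRF2 acts through the antioxidant response element, together with that of Gnmt, the methyltransferase upstream of Sardh, which held the only glucocorticoid element match. The windows are from RefSeq (GRCm38.p6), run from 250 bases before to 50 after the annotated start on the gene's strand, and exist here for 40 of the 47 genes. Capitals mark motif matches.
Tdo2 (chr3:81975679-81975978, minus strand): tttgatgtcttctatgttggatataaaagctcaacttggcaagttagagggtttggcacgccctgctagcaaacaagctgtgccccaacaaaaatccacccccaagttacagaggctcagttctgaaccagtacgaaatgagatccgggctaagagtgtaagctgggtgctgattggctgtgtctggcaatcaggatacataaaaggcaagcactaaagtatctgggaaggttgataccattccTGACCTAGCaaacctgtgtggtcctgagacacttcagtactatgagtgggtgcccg
Sardh (chr2:27247254-27247553, minus strand): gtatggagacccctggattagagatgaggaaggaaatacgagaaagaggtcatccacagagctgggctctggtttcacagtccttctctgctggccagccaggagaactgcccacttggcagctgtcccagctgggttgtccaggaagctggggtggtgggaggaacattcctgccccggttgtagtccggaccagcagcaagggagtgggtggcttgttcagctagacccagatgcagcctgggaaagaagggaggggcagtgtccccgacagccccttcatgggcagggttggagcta
Gnmt (chr17:46729116-46729415, minus strand): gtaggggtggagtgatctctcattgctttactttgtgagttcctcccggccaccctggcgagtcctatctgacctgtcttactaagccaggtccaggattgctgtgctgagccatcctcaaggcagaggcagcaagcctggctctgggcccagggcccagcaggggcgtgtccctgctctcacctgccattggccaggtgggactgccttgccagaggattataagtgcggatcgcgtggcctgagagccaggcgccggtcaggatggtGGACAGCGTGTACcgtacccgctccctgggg

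Both strands were searched for 4 motifs. The core of the antioxidant response element, TGACNNNGC, was found in the windows of Tdo2, Amt, Bckdhb and Prodh, 4 of 40 genes, and in 12.4% of all 32851 windows. In Tdo2 the match began 6 bases before the start (position -6). The Sardh window, whose RefSeq start lies inside the gene span given above, held none of the 4 motifs. The full palindrome of the glucocorticoid response element matched in Gnmt, beginning at position 20 after the start, and in 0.475% of all windows. An HNF4 element, CAAAGTCCA, matched in Agxt2 and Pipox and in 0.475% of all windows. The cyclic AMP response element, TGACGTCA, matched in none of the 40 genes and in 1.79% of all windows. These are matches of letters and not bound sites, and the lack of a match says only that the letters are not in the window.

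In the methionine cycle all 5 genes were higher with groups that did not overlap and had an unadjusted p under 0.05. Of all genes tested, 12.0% were higher without overlap and 9.02% were higher at that p. None of the 5 passed the adjusted threshold, and the median log2 fold change was 1.14, with a range from 0.76 to 1.46. That median was 0.69 with the brain marker covariate, 0.71 from mouse 3 alone, 0.61 after scaling to the hepatocyte markers and 0.42 with library size only. Mat1a, which makes S-adenosylmethionine in the adult liver, had 495, 537 and 399 normalized counts in wild-type mice and 1242, 1817 and 861 in mutant mice 1, 2 and 3. The mean was 477 ± 70.8 (SD, n = 3) against 1307 ± 481 (SD, n = 3), a log2 fold change of 1.45 ± 0.30 (SE) with an adjusted p of 0.0793 in edgeR. Gnmt, which consumes S-adenosylmethionine, had 111, 119.5 and 100.2 normalized counts in wild-type and 282, 269.6 and 179 in mutant mice, a log2 fold change of 1.14 ± 0.24 (SE) (edgeR adjusted p = 0.0803). Neither passed the threshold in edgeR, while DESeq2 and limma-voom called both higher. With the brain marker covariate neither was called (edgeR adjusted p = 0.468 for Mat1a and 0.555 for Gnmt). The same held after hepatocyte scaling (edgeR adjusted p = 0.158 and 0.511) and with the Xist covariate (edgeR adjusted p = 0.213 and 0.247).

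Ahcy, which splits S-adenosylhomocysteine, had 146, 164 and 119 normalized counts in the p62+/+ mice and 281, 408 and 240.4 in the mutants. Its log2 fold change was 1.12 ± 0.26 (SE) (edgeR adjusted p = 0.116). Part of its expected counts were fractional, so reads shared with similar sequences may have been split. Bhmt, the betaine-dependent enzyme that remakes methionine, had 486, 505 and 319 normalized counts in wild-type mice and 906, 2027 and 663 in mutant mice. Mouse 2 was far above the other mutants, and the log2 fold change of 1.46 ± 0.42 (SE) had an adjusted p of 0.205 in edgeR. Its relative Bhmt2, which uses S-methylmethionine as the methyl donor, had 30.5, 30.3 and 28.5 normalized counts in wild-type and 40.0, 73.1 and 38.7 in mutant mice, a log2 fold change of 0.76 (edgeR adjusted p = 0.290). For all 5 genes mouse 3 was the lowest mutant and still above each wild-type mouse, with log2 fold changes of 0.86 for Mat1a, 0.71 for Gnmt, 0.76 for Ahcy, 0.61 for Bhmt and 0.39 for Bhmt2 when it was the only mutant. The pathway's median log2 ratio to the wild-type mean was 1.05, 1.51 and 0.69 in mice 1, 2 and 3.

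Of all genes tested, 12.0% were higher without overlap of the groups, and of the 3 tested in transsulfuration and cysteine use 1 was. It was Cdo1, the dioxygenase that commits cysteine to taurine and sulfate, which had 161, 149 and 168 normalized counts in wild-type mice and 289, 349 and 221 in mutants. The log2 fold change was 0.84 ± 0.23 (SE) with an adjusted p of 0.160 in edgeR. The enzymes upstream of it had overlapping groups. Cth, which releases cysteine from cystathionine, had 35.3, 41.9 and 14.7 normalized counts in wild-type and 60.9, 81.9 and 28.7 in mutant mice, so mouse 3 lay within the wild-type range, and the log2 fold change was 0.89 from all mice and -0.09 from mouse 3 alone. Cbs, which joins homocysteine to serine, had a log2 fold change of 0.23 (edgeR adjusted p = 0.712) and of -0.37 with mouse 3 alone. Csad, which makes hypotaurine, was at 5 to 13 expected counts in every library and was not tested.

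**Figure D2:**
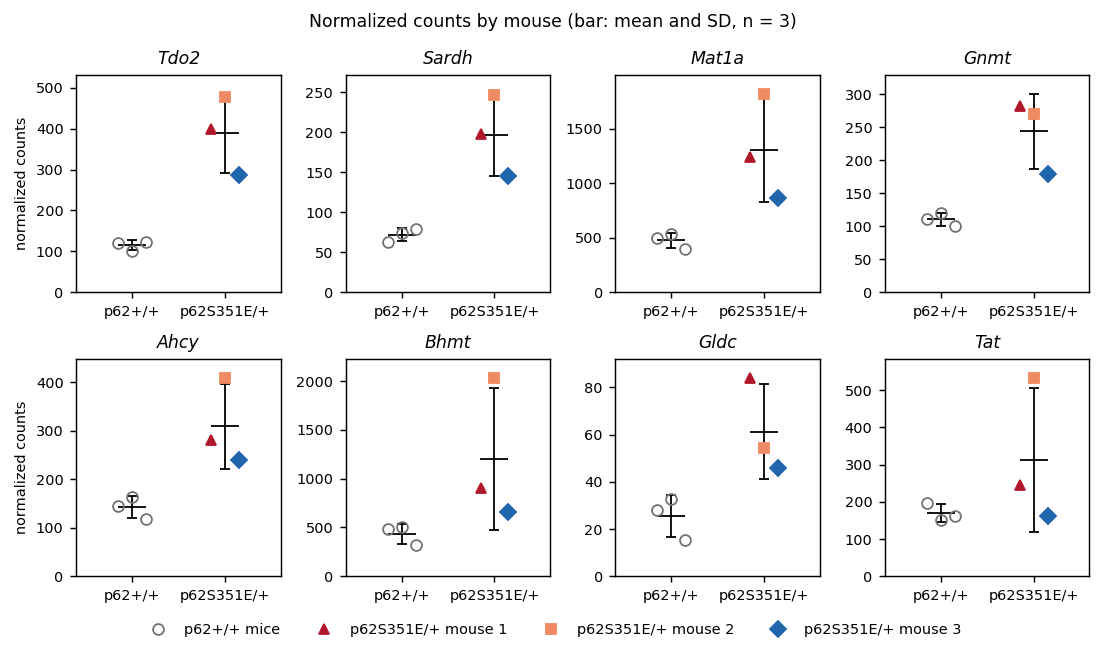
Normalized counts (y axis) of Tdo2, Sardh, Mat1a, Gnmt, Ahcy, Bhmt, Gldc and Tat in each of the 6 mice (points), by genotype, with the group mean and SD (n = 3). For every gene but Tat, the 3 p62S351E/+ mice lay above the 3 p62+/+ mice.

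Among the genes of glycine and its methylated forms, 1 of 5 tested (Sardh) was called higher, where 0.841% of all genes were. The median log2 fold change of the 5 was 1.25, with a range from 0.30 to 1.44. The median was 0.24 with the brain marker covariate, 0.26 from mouse 3 alone, 0.67 after hepatocyte scaling and 0.48 with library size only. Gldc, the decarboxylase of the glycine cleavage system, had 28.1, 32.6 and 15.5 normalized counts in wild-type mice and 83.8, 54.2 and 45.7 in mutants. The groups did not overlap, and the log2 fold change was 1.25 ± 0.34 (SE) (edgeR adjusted p = 0.160). Dmgdh, which makes sarcosine from dimethylglycine and so lies just before Sardh, had 34.4, 50.9 and 37.1 normalized counts in wild-type and 107, 156 and 48.8 in mutant mice. Here mouse 3 overlapped the wild-type mice, the counts were partly fractional, and the log2 fold change of 1.34 ± 0.40 (SE) had an adjusted p of 0.220 in edgeR. Of the other subunits of the cleavage system, Gcsh, the lipoyl carrier, had a log2 fold change of 0.30 (edgeR adjusted p = 0.726), and Amt, the aminomethyltransferase, had at most 11 expected counts in any library. Pipox, which oxidizes pipecolate and sarcosine in peroxisomes, had a log2 fold change of 0.60 (edgeR adjusted p = 0.402).

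Below Tdo2 in the tryptophan pathway, fitted log2 fold changes lay between 0.44 and 0.94. Afmid, the formamidase that follows Tdo2, had 16.9, 11.6 and 24.2 normalized counts in p62+/+ and 26.7, 41.6 and 32.5 in p62S351E/+ mice, without overlap, and a log2 fold change of 0.94 ± 0.33 (SE) (edgeR adjusted p = 0.261). Kmo, the kynurenine hydroxylase, had 23.3, 24.8 and 24.2 normalized counts in wild-type and 41.9, 51.7 and 27.1 in mutant mice and a log2 fold change of 0.73 ± 0.28 (SE) (edgeR adjusted p = 0.296). Mouse 3 was close to the wild-type mice for Kmo. For the next enzymes, Kynu and Haao, the log2 fold changes were 0.44 and 0.71 from all mice but -0.42 and -0.27 from mouse 3 alone, which lay below every wild-type mouse for both. Acmsd, which turns the pathway away from NAD synthesis, had 1 to 5 expected counts per library and was not tested.

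Tyrosine breakdown runs from Tat through Hpd and Hgd to Fah, and none of these 4 genes was called. Their median log2 fold change was 0.56, and 1 of the 4, Hgd, was higher at an unadjusted p under 0.05, where 9.02% of all genes were. Hgd, which opens the ring of homogentisate, had 46.5, 49.7 and 50.1 normalized counts in the wild type and 85.7, 80.6 and 74.4 in the mutants. After TMM scaling these groups were narrow and well apart, with means of 48.8 ± 1.94 and 80.2 ± 5.67 (SD, n = 3 in both). In edgeR the log2 fold change was 0.72 ± 0.19 (SE) with an adjusted p of 0.160. From mouse 3 alone the log2 fold change was 0.62. After hepatocyte scaling it was 0.24 (edgeR adjusted p = 0.728), and over 19 alternative fits it ran from 0.036 to 0.77. Tat, the glucocorticoid-responsive aminotransferase at the head of the pathway, had 197, 151 and 162 normalized counts in wild-type and 246, 532 and 163 in mutant mice. Its log2 fold change of 0.88 (edgeR adjusted p = 0.364) had mouse 2 far above all other mice, and mouse 3 alone gave -0.05. Hpd, which makes homogentisate, had 181, 168 and 181 normalized counts in wild-type and 225, 247 and 218 in mutant mice and a log2 fold change of 0.38 (edgeR adjusted p = 0.387), and Fah, the last enzyme, one of 0.40 (edgeR adjusted p = 0.458).

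Histidine breakdown had a median log2 fold change of 0.80 over its 3 genes, none of them called. At an unadjusted p under 0.05, 2 of the 3 were higher, where 9.02% of all genes were. Ftcd, which passes the histidine carbon to folate, had 69.0, 69.9 and 80.3 normalized counts in wild-type and 198, 119.7 and 101 in mutant mice, a log2 fold change of 0.93 ± 0.28 (SE) (edgeR adjusted p = 0.209). Uroc1, the urocanase, had 85.1, 123 and 105 normalized counts in wild-type and 208, 198 and 141 in mutant mice and a log2 fold change of 0.80 ± 0.24 (SE) (edgeR adjusted p = 0.218). Neither gene's groups overlapped, where 12.0% of all genes were higher without overlap. The amidohydrolase Amdhd1 between them had a log2 fold change of 0.43 (edgeR adjusted p = 0.498). Histidine breakdown is a function of periportal hepatocytes, and the 6 periportal markers (Hal, Sds and Gls2 among them, which also act on amino acids) summed to 804, 526 and 665 normalized counts in p62+/+ and 1718, 1996 and 1131 in p62S351E/+ mice. The 6 pericentral markers summed to 1465, 1419 and 1500 against 1139, 1779 and 1498. The periportal sum was thus higher in all 3 mutants and the pericentral sum overlapped, but single markers differed. Among the periportal markers the log2 fold change was 1.05 for Hal, 0.75 for Gls2 and 0.08 for Sds. Among the pericentral markers it was -1.30 for Glul and 0.28 for Oat. The part of zonation in the results for these enzymes was not tested.

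**Figure D3:**
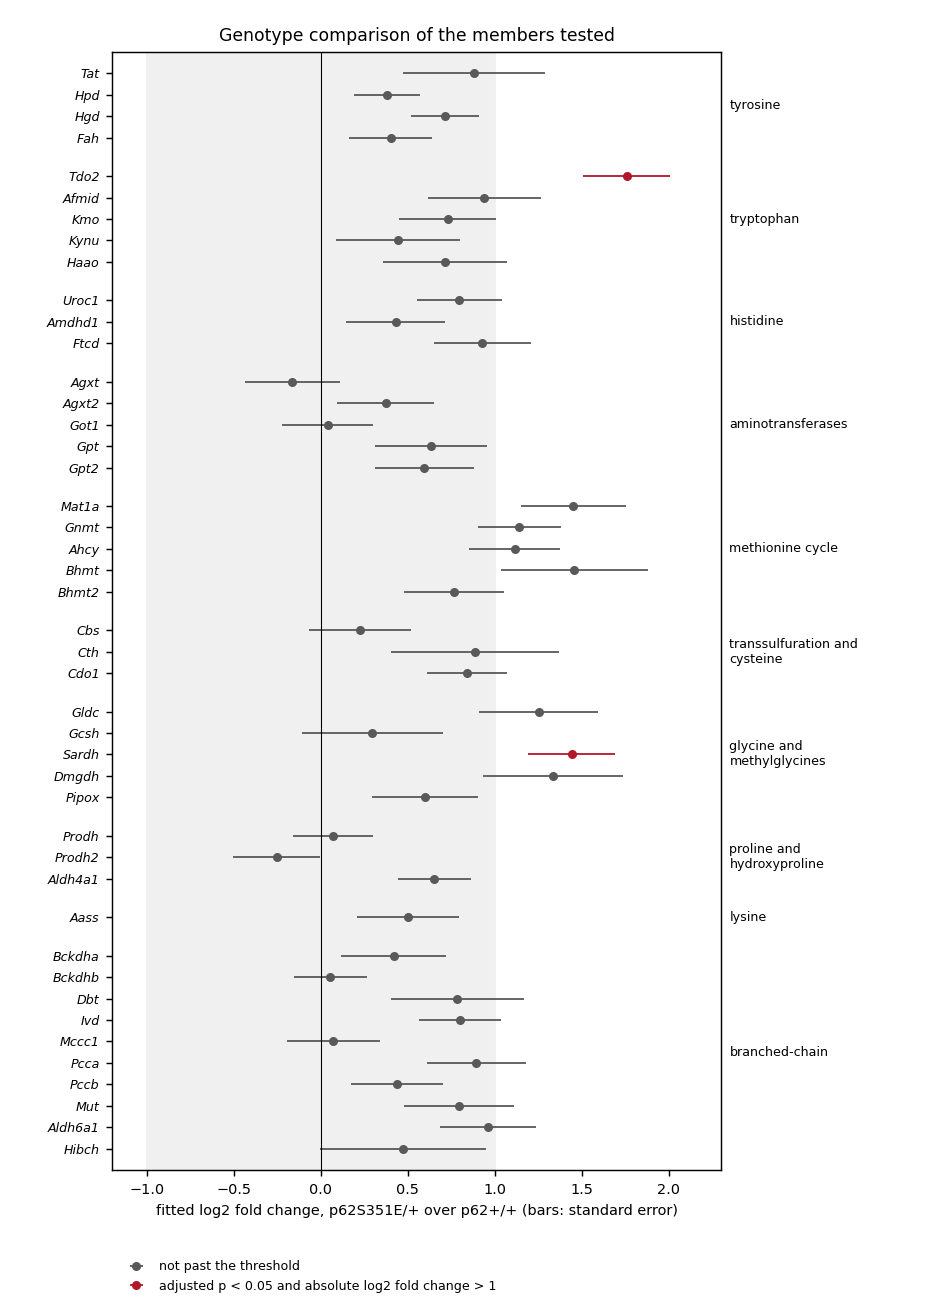
Fitted log2 fold change (x axis, p62S351E/+ over p62+/+) of each of the 44 tested genes (rows, by pathway) from edgeR, with bars for the standard error and a grey band between -1 and 1. Tdo2 at 1.76 and Sardh at 1.44 (red) passed the test, and 42 of the 44 points lie above 0.

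In the branched-chain pathway none of 10 genes was called, all 10 had fitted values above 0, and the median log2 fold change was 0.63, with a range from 0.05 to 0.96. At an unadjusted p under 0.05, 9.02% of all genes were higher, and 4 of the 10 were, namely Ivd, Pcca, Mut and Aldh6a1. They act after the ketoacid dehydrogenase that commits the pathway, as do most of the 10. Pccb, Mccc1 and Hibch act there too and did not pass that cutoff. Dbt, a subunit of the dehydrogenase, did not pass it but had groups without overlap. Aldh6a1, the semialdehyde dehydrogenase of valine breakdown, had 47.3, 53.6 and 54.4 normalized counts in p62+/+ and 107, 131 and 65.8 in p62S351E/+ mice, a log2 fold change of 0.96 ± 0.27 (SE) (edgeR adjusted p = 0.188), from partly fractional counts. Ivd, which oxidizes isovaleryl-CoA from leucine, had 27.3, 31.1 and 25.9 normalized counts in wild-type and 45.7, 60.5 and 41.1 in mutant mice and a log2 fold change of 0.80 ± 0.24 (SE) (edgeR adjusted p = 0.203). Pcca, the biotin-carrying subunit of propionyl-CoA carboxylase, had 15.2, 10.9 and 11.2 normalized counts in wild-type and 24.8, 25.2 and 20.1 in mutant mice and a log2 fold change of 0.89 ± 0.29 (SE) (edgeR adjusted p = 0.237), while its partner subunit Pccb had 0.44 (edgeR adjusted p = 0.463). For the branched-chain ketoacid dehydrogenase the log2 fold changes were 0.42 for Bckdha, 0.05 for Bckdhb and 0.79 for Dbt, with edgeR adjusted p of 0.533, 0.914 and 0.377. Mut, the methylmalonyl-CoA mutase, had 21.7, 25.6 and 26.8 normalized counts in wild-type and 26.7, 61.7 and 39.5 in mutant mice, with mouse 1 within the wild-type range, and a log2 fold change of 0.79 (edgeR adjusted p = 0.310). Mccc1, of leucine breakdown, and Hibch, of valine breakdown, had log2 fold changes of 0.07 and 0.47.

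The aminotransferases, the proline enzymes and the single lysine enzyme had the lowest medians, at 0.37, 0.07 and 0.50. Agxt, Agxt2, Got1, Gpt and Gpt2 had log2 fold changes of -0.17, 0.37, 0.04, 0.63 and 0.59, and 0 of the 5 had an unadjusted p under 0.05. Of all genes, 9.02% were higher and 5.55% lower at that cutoff. Gpt, the cytosolic alanine aminotransferase, had 31.3, 60.6 and 52.7 normalized counts in wild-type and 64.7, 103 and 56.6 in mutant mice. Gpt2, its mitochondrial form, had 37.7, 66.0 and 64.8 in wild-type and 83.8, 105 and 66.6 in mutant mice. Mouse 2 was the highest for both, and mouse 3 lay within or close to the wild-type range. In proline breakdown, Prodh and Prodh2, the dehydrogenases of proline and hydroxyproline, had 0.07 and -0.26. Only Aldh4a1, which acts on the products of both, had groups without overlap, with 51.4, 66.0 and 54.4 normalized counts in wild-type and 97.1, 94.5 and 79.0 in mutant mice and a log2 fold change of 0.65 ± 0.21 (SE) (edgeR adjusted p = 0.237). Aass, the first enzyme of lysine breakdown, had 54.6, 61.3 and 41.5 normalized counts in wild-type and 57.1, 106 and 59.6 in mutant mice, with mouse 2 apart from the rest, and a log2 fold change of 0.50 (edgeR adjusted p = 0.454). The differences between pathways were not tested.

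Per kilobase of annotated exon, the levels in p62+/+ livers spanned a wide range. Bhmt had 175 ± 41.1 normalized counts per kilobase (SD, n = 3), Mat1a 138 ± 20.4, Hpd 126 ± 5.47, Gnmt 106 ± 9.37 and Cdo1 100.1 ± 6.14, and these were the 5 highest of the 47. Bhmt and Mat1a differed by less than the spread of Bhmt, Mat1a and Hpd by less than the spread of Mat1a, and Gnmt and Cdo1 by less than that of Gnmt. In p62S351E/+ mice the levels were 481 ± 292 for Bhmt, 377 ± 139 for Mat1a, 235 ± 54.3 for Gnmt, 179.6 ± 40.2 for Cdo1 and 164 ± 10.7 for Hpd. The lowest of the 47 was Acmsd, at 0.68 normalized counts per kilobase in wild-type mice.

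The 14 genes called higher when p62S351E/+ mouse 3 was left out were Tat, Tdo2, Haao, Ftcd, Mat1a, Gnmt, Ahcy, Bhmt, Cth, Cdo1, Gldc, Sardh, Dmgdh and Aldh6a1. That fit compared the 2 mutant libraries with next to no brain transcripts with the 3 wild-type libraries that had them, and it called 5.21% of all genes higher and 15.3% lower. Of the 14, Tdo2 and Sardh were also called from mouse 3 alone, where 0.949% of all genes were called higher and 0.303% lower. With the brain marker covariate only Tdo2 was called (0.505% of all genes higher and 0.0336% lower), and the median of the 44 log2 fold changes was 0.23, beside 0.00 over all genes. After scaling to the hepatocyte markers, an alternative chosen after seeing the data, 0 of the 44 were called by edgeR (0.219% of all genes higher and 0.0841% lower), and 5 were higher and 1 lower at an unadjusted p under 0.05. The share of all genes at that unadjusted cutoff was not computed after this scaling. The median of the 44 genes was 0.15 where that of all genes was -0.50. Rescaling the libraries moves all genes by nearly the same amount, so the gap between both medians could change little. It was 0.65, beside 0.75 without that scaling, whereas with the brain marker covariate it was 0.23. With the brain marker covariate and after hepatocyte scaling, the medians were 0.16 and 0.049 for tyrosine, 0.16 and 0.16 for tryptophan, 0.42 and 0.27 for histidine, and 0.16 and 0.038 for branched-chain genes. The transsulfuration median was -0.11 and 0.24, the aminotransferase median 0.23 and -0.12, the proline median -0.22 and -0.46, and the lysine value 0.19 and -0.079.

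**Figure D4:**
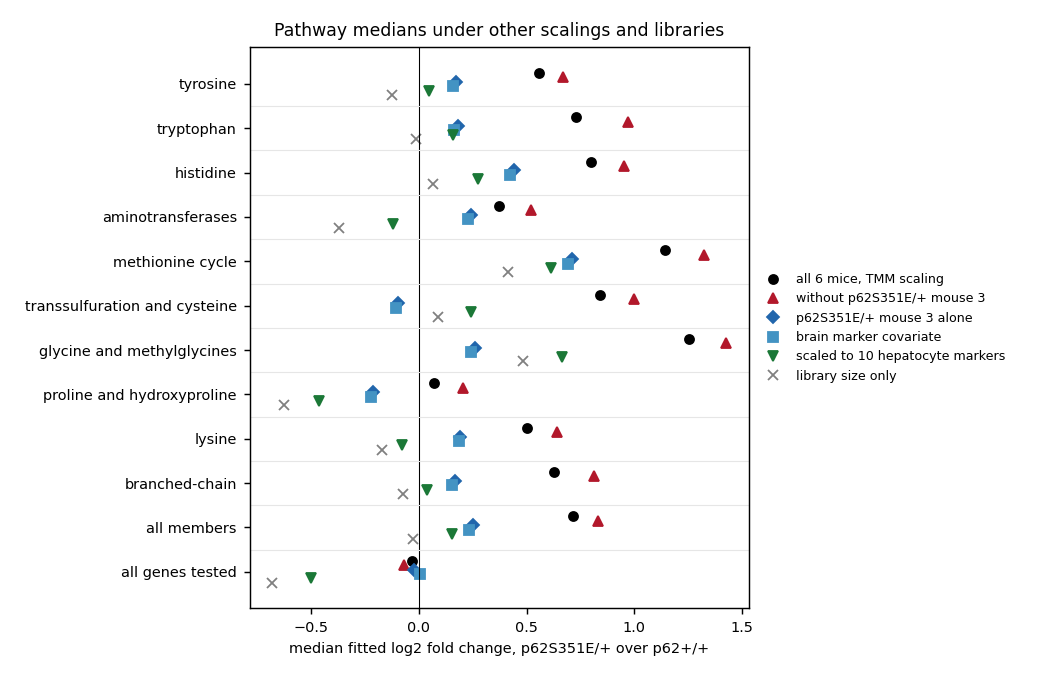
Median fitted log2 fold change (x axis, p62S351E/+ over p62+/+) of the tested genes of each pathway, of all 44 and of all genes tested (rows), under 6 fits (symbols). The median of all 44 moves from 0.71 with all mice to 0.25 with mouse 3 as the only mutant and 0.15 after scaling to the hepatocyte markers, where all genes move to -0.50.

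A further 85 genes of the same pathways, or of amino acid transport and its regulators, were examined beside the 47, of which 64 were tested. By edgeR, 1 rose and 0 fell, where 0.841% and 0.0841% of all genes were called higher and lower. At an unadjusted p under 0.05, 17 were higher and 3 lower, where 9.02% and 5.55% of all genes were. The same counts were 4 and 2 with the brain marker covariate, 3 and 3 after hepatocyte scaling, and 0 and 3 with library size only. Shares of all genes at that cutoff were not computed in these alternative fits, so these counts have no background beside them. DESeq2, which gave an adjusted p for 37 of the 64, and limma-voom called none lower. The median log2 fold change was 0.33, with a range from -1.94 to 1.61. It was 0.12 with the brain marker covariate and 0.13 from mouse 3 alone, and it turned to -0.18 after hepatocyte scaling and -0.35 with library size only, where all genes had medians of -0.50 and -0.68. The gene that rose was Slc7a2, the carrier of arginine and lysine, with 79.4, 113 and 74.3 normalized counts in wild-type mice and 289, 256 and 213 in mutant mice. The groups did not overlap, and the log2 fold change was 1.51 ± 0.24 (SE) (edgeR adjusted p = 0.0341) from all mice and 1.27 from mouse 3 alone. The call was lost when any mouse other than p62S351E/+ mouse 3 was left out (edgeR adjusted p between 0.0640 and 0.199). It was also lost with the brain marker covariate (edgeR adjusted p = 0.0963), the Xist covariate (edgeR adjusted p = 0.0977), hepatocyte scaling (edgeR adjusted p = 0.486) or library size only (edgeR adjusted p = 0.420).

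The next smallest p-values on the higher side belonged to Aadat, Slc38a4 and Sqrdl. Aadat, an aminotransferase of aminoadipate and kynurenine, had a log2 fold change of 1.61 ± 0.36 (SE) and Slc38a4, a carrier of neutral amino acids, one of 1.15 ± 0.29 (SE), with edgeR adjusted p of 0.101 and 0.130. Sqrdl, the sulfide oxidase, had 1.07 ± 0.27 (SE), with an edgeR adjusted p of 0.133. On the lower side were Asrgl1, Ahcyl1 and Glul. Asrgl1, an asparaginase, had 12.0, 15.5 and 32.0 normalized counts in p62+/+ and 3.81, 3.78 and 6.97 in p62S351E/+ mice (log2 fold change -1.94 ± 0.48 (SE), edgeR adjusted p = 0.123). Glul, the glutamine synthetase of pericentral hepatocytes and of astrocytes, had 299, 297 and 272 normalized counts in wild-type and 38.1, 119.7 and 191 in mutant mice (log2 fold change -1.30 ± 0.50 (SE), edgeR adjusted p = 0.312). Ahcyl1, a relative of Ahcy that binds the IP3 receptor, had a log2 fold change of -0.88 ± 0.34 (SE) (edgeR adjusted p = 0.296). All 3 were lowest in mice 1 and 2, in the libraries with next to no brain transcripts. Mouse 3 also lay below every wild-type mouse for all 3, as it did for 29.6% of all genes. Without mouse 3 all 3 were called lower, in a fit that called 15.3% of all genes lower.

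The regulators of these pathways were not called. Their median log2 fold change was 0.12, with a range from -0.47 to 1.03. Fitted values were above 0 for 6 and below 0 for 3, where 48.0% of all genes were above 0. Of 9 tested, Ppargc1a, a coactivator of the fasting response, had 9.63, 15.5 and 16.4 normalized counts in wild-type and 24.8, 34.0 and 26.3 in mutant mice (log2 fold change 1.03 ± 0.30 (SE), edgeR adjusted p = 0.203). Hnf4a, the nuclear receptor that sets hepatocyte identity, had 86.7, 84.6 and 89.8 normalized counts in wild-type and 131, 189 and 113 in mutant mice (log2 fold change 0.73 ± 0.24 (SE), edgeR adjusted p = 0.241). Both had groups without overlap, the only 2 of the 9 to do so, where 12.0% of all genes were higher without overlap. Nr3c1, the glucocorticoid receptor through which Tat and Tdo2 are known to respond, had 34.5, 29.5 and 30.2 normalized counts in wild-type and 30.5, 29.0 and 27.9 in mutant mice, a log2 fold change of -0.11. Atf4, the factor of the amino acid response, was not among the 9. It had 18.5, 19.4 and 13.8 normalized counts in wild-type and 20.9, 12.6 and 18.6 in mutant mice, a log2 fold change of 0.00.

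**Figure D5:**
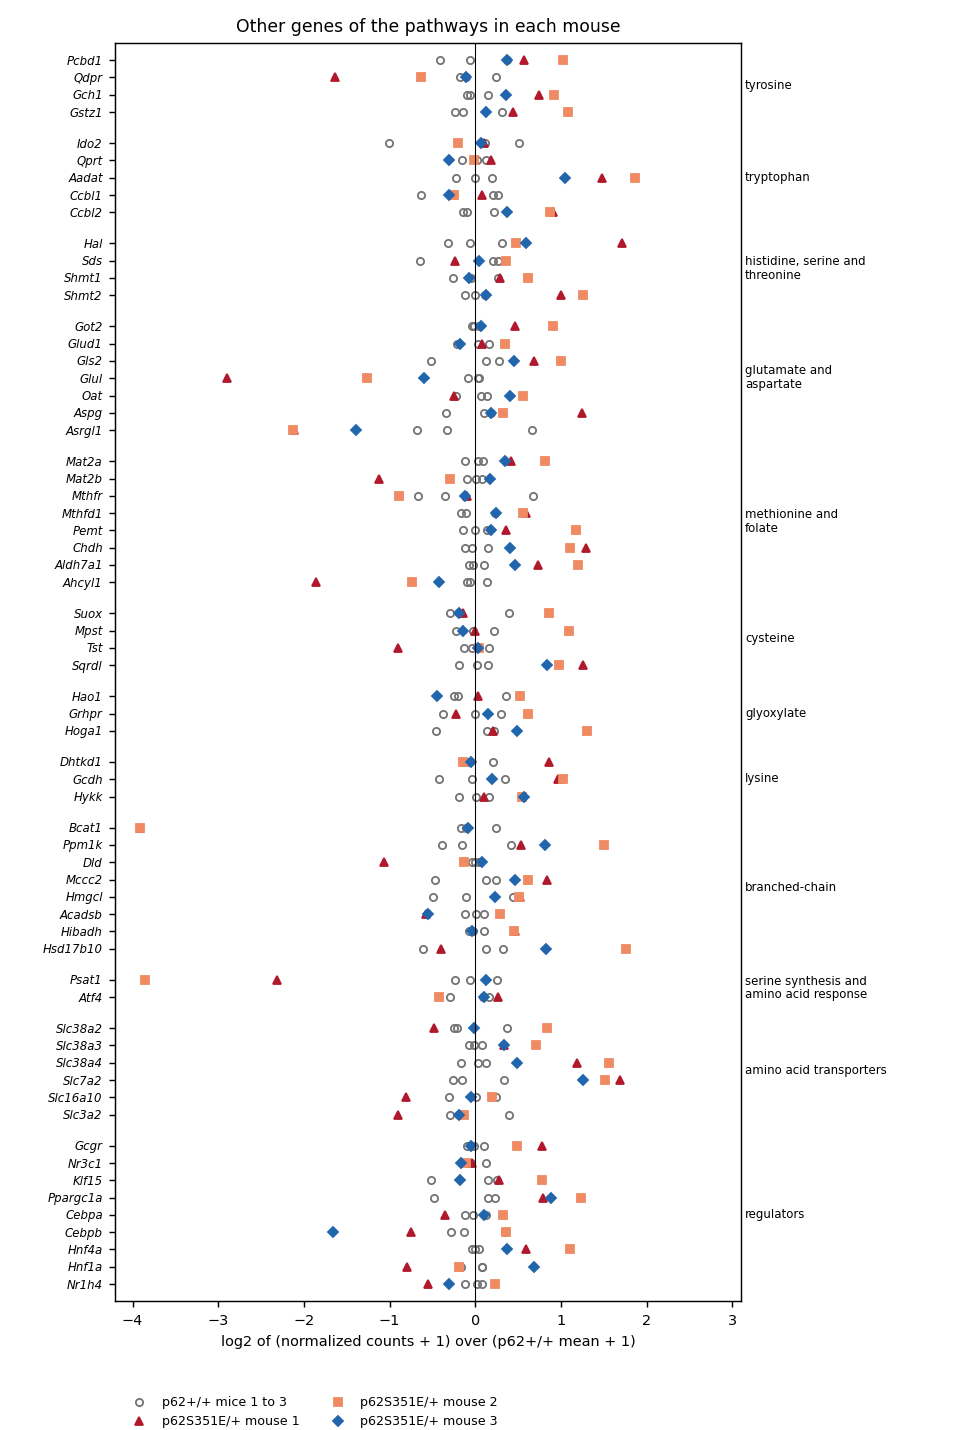
Log2 ratio of normalized counts to the p62+/+ mean (x axis, with a pseudocount of 1) for tested further genes (rows, by group), with 1 point per mouse. Slc7a2 passed the test at a log2 fold change of 1.51, and Asrgl1 and Glul were lowest in p62S351E/+ mice 1 and 2.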

How the data were processed

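The authors sequenced whole-liver RNA from P19 mice (3 p62+/+, 3 p62S351E/+) as single-end reads, mapped them to mm10 with STAR and assigned them to genes with RSEM (Trim Galore is also named in the submitters' processing notes). Tool versions and gene annotation were not given in the sources used here. The deposited values are expected counts per gene symbol, not normalized, and 6.45% of the nonzero values were not whole. Groups came from the sample labels.

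Expected counts were rounded to whole numbers, filtered with filterByExpr (minimum count 10), scaled by TMM and tested with edgeR 4.0.16 (glmQLFit with robust dispersions and its newer method, R 4.3.3) without covariates. Adjustment was by Benjamini-Hochberg across the 5945 genes tested, and a gene was called at an adjusted p under 0.05 and an absolute log2 fold change over 1. The study's methods name DESeq2, which was run as an alternative (1.42.0), as was limma-voom (limma 3.58.1). For normalized counts, each library was divided by its effective (TMM) size after these sizes had been set to a geometric mean of 1 over the 6 mice. Outside Rn45s, Lars2 and Mir6236 a library held 134911 to 315436 counts, so genes with few counts are imprecise.

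The 47 genes, the 85 further genes and the marker lists were chosen with earlier results of these data known. Values in every mouse were given for each gene called, each gene with an unadjusted p under 0.05 and groups without overlap, and in each pathway the gene with the most counts and the one with the largest fold change. Of the further genes, those called and up to 5 per direction with the smallest p were named, a single gene among them was not reported, and other genes named with values were chosen after their values were seen. In the fits with p62S351E/+ mouse 3 as the only mutant, its spread was taken from the p62+/+ mice. Labels do not say how the mice were related, so p-values measure the spread between these animals only. On simulated counts edgeR recovered 71.6% of 194 changed genes (log2 fold change of 2, up or down in equal numbers), and 6.08% of its 148 calls were false. The fitted changes of the 44 genes were all smaller, at most 1.76, and mostly in the same direction. The simulation also held no difference in brain transcripts between mutants. These rates therefore do not carry over to the 44 genes. Promoter windows and positions are from RefSeq and GENCODE for GRCm38, the assembly of mm10.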

Additional observations from a re-analysis of the deposited data

How the results depend on the processing

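The number of the 44 genes called higher was 2 in the fit described above, 4 with DESeq2 (of 37 with an adjusted p), 5 with limma-voom, 4 without a filter, 1 with DESeq2 size factors, with the brain marker covariate or with the Xist covariate, and 0 with library size only, after hepatocyte scaling (chosen after seeing the data) or with the replicate number as a block. Leaving out single mice gave 0 to 14, with 14 without p62S351E/+ mouse 3, 1 without p62S351E/+ mouse 2 and 0 without any other mouse. None was called lower under any alternative. Shares of all genes called were not computed without a filter, with DESeq2 size factors, with the Xist covariate or with the replicate block. Nor were they computed with single mice left out, other than p62S351E/+ mouse 3. The further genes called higher numbered 1, against 2 with limma-voom and 0 with library size only, the replicate block, the brain or Xist covariate or hepatocyte scaling, and 0 to 11 without single mice. Those called lower numbered 0, against 0 to 6 without single mice. Without p62S351E/+ mouse 3, 11 of 65 further genes were called higher and 6 lower, where 5.21% of all genes were called higher and 15.3% lower.

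The median log2 fold change of 0.71 became -0.027 with library size only (all genes -0.68), 0.23 with the brain marker covariate, 0.25 with mouse 3 alone, 0.15 with hepatocyte scaling (all genes -0.50), and 0.42 to 0.83 without single mice. With library size only, medians turned to -0.12 for tyrosine, -0.015 for tryptophan, -0.37 for aminotransferases, -0.63 for proline, -0.17 for lysine and -0.075 for branched-chain genes, and single log2 fold changes to -0.015 for Kmo, -0.057 for Gpt, -0.11 for Gpt2, -0.040 for Aldh4a1 and -0.17 for Aass. Hepatocyte scaling gave -0.12 for aminotransferases, -0.46 for proline and -0.079 for lysine and Aass. The brain marker covariate gave -0.11 for transsulfuration, -0.22 for proline, -0.072 for Tat and -0.11 for Cth, and mouse 3 alone gave -0.095, -0.21, -0.053 and -0.095 for the same. The proline median was also -0.19 with at least 10 counts in every library, -0.036 with the Xist covariate, and with single mice left out it ran from -0.079 without p62S351E/+ mouse 2 to 0.20 without p62S351E/+ mouse 3, below 0 also without p62+/+ mouse 1. The cause was not tested.

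The labels do not say whether the replicate numbers pair the mice. Deviations of same-numbered mice from their group means correlated at 0.07, -0.09 and 0.00, and not every mouse correlated best with its own number. With 3 mice per genotype, and p62S351E/+ mice 1 and 2 set apart by their brain transcripts, these correlations cannot decide whether the mice were paired. With 3 mice per genotype and a single line, brain transcripts, Xist and hepatocyte marker level cannot be separated from genotype in p62S351E/+ mice 1 and 2. The study reported growth retardation and signs of malnutrition and dehydration in younger p62S351E/+ mice. These too cannot be separated from genotype here, and their part in the results was not tested.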
